A study of Mus musculus with 73 samples.

Results

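Zdbf2 encodes a zinc finger protein of the DBF type and is expressed from the paternal allele in mouse tissues. It is 1 of the 30546 genes in the deposited table and was chosen by its total reads and allelic ratios over the 12 groups. Therefore its read counts, levels and allele shares are given as a description, with no test between genotypes, crosses or tissues. Tests were run only within a group, by sex and by the mRNA of the targeted gene. The working name of the gene, an imprint that needs Polycomb, covered only part of the pattern, because maternal reads were also frequent in embryos labelled as Dnmt1 knockouts.

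An imprinted gene is read mainly from the copy of 1 parent, and the mark that separates the copies is set in the germ line, usually as DNA methylation over a control region. At Zdbf2 the control region is methylated on the maternal copy. In the early embryo a long transcript, Liz, is made from the unmethylated paternal copy and runs into the Zdbf2 gene from an upstream start. Polycomb complexes act at the same locus: PRC1, which contains the ubiquitin ligase Rnf2, modifies histone H2A, and PRC2, which contains Eed, methylates histone H3 at lysine K27. Dnmt1 copies DNA methylation after replication, and G9a and Glp, encoded by Ehmt2 and Ehmt1, methylate histone H3 at lysine K9.

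RNA was sequenced from the epiblast, which gives rise to the embryo, and from the extraembryonic ectoderm (ExE), which gives rise to part of the placenta, of single mouse embryos at embryonic day 6.5. Wild-type embryos came from BDF1 mothers and CAST fathers (BDF1xCAST, 7 embryos in each tissue) or from the reverse cross (CASTxBDF1, 4 in each tissue). BDF1 is a hybrid of laboratory strains and CAST is a wild-derived strain, and reads over polymorphisms between them were assigned to a parent. The knockouts were all BDF1xCAST zygotes injected with Cas9 mRNA and several guide RNAs against Dnmt1 (3 epiblast and 3 ExE libraries), Ehmt1 and Ehmt2 together (G9a-Glp, 6 and 8), Rnf2 (6 and 5) or Eed (9 and 10). Each injected embryo therefore carries its own set of edited alleles and can be a mosaic. BDF1xCAST zygotes were made by sperm injection, whereas CASTxBDF1 embryos came from natural mating, so the direction of the cross and the mode of fertilisation cannot be told apart.

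Libraries held 1141414 to 17653087 reads over polymorphisms (median 2711272). Of the 11 Rnf2 libraries, 1 ExE library (embryo 5) had 1847681 reads and the other 10 had 5549733 or more, while those of other genotypes reached at most 3976031. The summed level of 9 epiblast marker genes was 2073 to 6683 CPM (counts per 1000000 reads over polymorphisms of the library) in epiblast libraries and 497 to 1313 CPM in ExE libraries. ExE markers summed to 50.1 to 285 CPM in epiblast and 676 to 2353 CPM in ExE. Visceral endoderm markers reached 2154 CPM in CASTxBDF1 epiblast (median 22.3) and 460 CPM in BDF1xCAST epiblast (median 5.08). Their highest sums were 295 CPM in G9a-Glp, 189 in Dnmt1, 79.3 in Rnf2 and 44.0 in Eed epiblast. Early mesoderm markers had medians of 456 CPM in BDF1xCAST epiblast, 51.7 in Rnf2 and 63.3 in Eed epiblast, and their part in the Zdbf2 values was not tested. Eed mRNA was 157 ± 54.5 CPM (SD, n = 7) in BDF1xCAST epiblast against 9.38 ± 5.59 in Eed epiblast (n = 9), and Dnmt1 mRNA was 33.0 ± 5.64 against 8.02 ± 3.35 in Dnmt1 epiblast (n = 3). Rnf2 mRNA was 45.3 ± 9.58 CPM against 26.5 ± 6.42 in Rnf2 epiblast (n = 6), and all 5 Rnf2 ExE libraries (21.9 to 62.7 CPM) lay within the wild-type ExE range of 21.4 to 65.9 CPM. In the libraries labelled G9a-Glp epiblast, Ehmt1 was 29.3 CPM in embryo 2 and 50.5 in embryo 7, at or above the wild-type mean of 29.3 CPM, and Ehmt2 was at 3.07 CPM in both groups. In ExE, the library labelled Dnmt1 embryo 1 had 47.9 CPM of Dnmt1, within the wild-type range of 35.7 to 62.2 CPM. Which exons these reads cover is not given in the table, so they need not lie in the edited part of a gene.

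The deposited Zdbf2 row spans chr1:63200358-63314576 on the plus strand of mm10, 114219 bases in all. RefSeq lists 10 transcripts for it and 2 start sites with a promoter entry (GRCm38.p6), which lie 72911 bases apart. The row sums reads over the whole span, so transcripts from the upstream and the downstream start cannot be told apart in these data. Gpr1, a receptor gene on the minus strand, covers the first 22993 bases of the span. The library kit does not keep strand, so reads in that stretch could belong to either gene. The 2 promoter windows are shown because the allele-specific transcript described in the background starts at the upstream end of the gene. Each runs from 250 bases before to 50 after the start site, 5′ to 3′ on the plus strand, with every CG dinucleotide in capitals. The upstream window is chr1:63200108-63200407 and the downstream window is chr1:63273019-63273318.
Zdbf2 upstream start: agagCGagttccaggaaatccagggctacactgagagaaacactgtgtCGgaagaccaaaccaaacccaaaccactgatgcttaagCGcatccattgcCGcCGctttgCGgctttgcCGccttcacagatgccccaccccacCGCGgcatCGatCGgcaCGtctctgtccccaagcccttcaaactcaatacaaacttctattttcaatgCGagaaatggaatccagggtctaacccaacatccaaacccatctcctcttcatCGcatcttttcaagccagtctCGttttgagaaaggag
Zdbf2 downstream start: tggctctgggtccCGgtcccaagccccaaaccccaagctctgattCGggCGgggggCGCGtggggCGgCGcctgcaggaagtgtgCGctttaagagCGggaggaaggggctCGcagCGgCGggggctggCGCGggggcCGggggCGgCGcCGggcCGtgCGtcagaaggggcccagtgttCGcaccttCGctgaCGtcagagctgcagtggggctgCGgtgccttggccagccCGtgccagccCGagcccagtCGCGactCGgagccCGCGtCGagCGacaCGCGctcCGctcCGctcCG

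The upstream window holds 15 CG dinucleotides and is 51.3% G and C, and 34.6% of the 32851 RefSeq promoter windows of this length hold as many. The downstream window holds 38 and is 74.7% G and C, a number reached by 4.95% of the windows. The 6 letters TGCCGC, which the imprint-protecting protein Zfp57 binds when they are methylated, were searched on both strands. They occurred 3 times in the upstream window and 0 times in the downstream window. At least 1 match was present in 11.6% of all windows and at least 3 in 0.234%. A match is a description of the letters and not a bound site.

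In wild-type epiblast Zdbf2 was read from the father in both crosses. The BDF1xCAST embryos had 47 to 104 Zdbf2 reads each, of which 0 to 6 were maternal, and 3 of the 7 embryos had no maternal read. Their maternal share was 1.99% ± 2.28 (SD, n = 7), with a lowest value of 0%, a median of 1.30% and a highest of 5.77% in embryo 6. In the CASTxBDF1 cross, where the paternal copy comes from the other strain, embryo 1 had 2 maternal reads of 88 and the other 3 embryos had 0 of 67, 0 of 75 and 0 of 34. The mean share there was 0.57% ± 1.14 (n = 4). Summed over embryos, 12 of 506 reads were maternal in the first cross (2.37%, 95% Wilson interval 1.36 to 4.10%) and 2 of 264 in the second (0.758%, 0.208 to 2.72%). These intervals, like all those below, cover counting error only, because PCR reads without molecular identifiers are not independent molecules.

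Total Zdbf2 was 31.2 ± 9.07 CPM in BDF1xCAST epiblast (lowest 19.7, median 30.3, highest 44.2) and 25.3 ± 9.18 CPM in CASTxBDF1 epiblast (32.7, 25.5, 30.8 and 12.3 CPM). The ranges of the crosses overlapped. In bulk tissue, fewer cells that express a gene and less RNA per cell cannot be told apart.

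**Figure D1:**
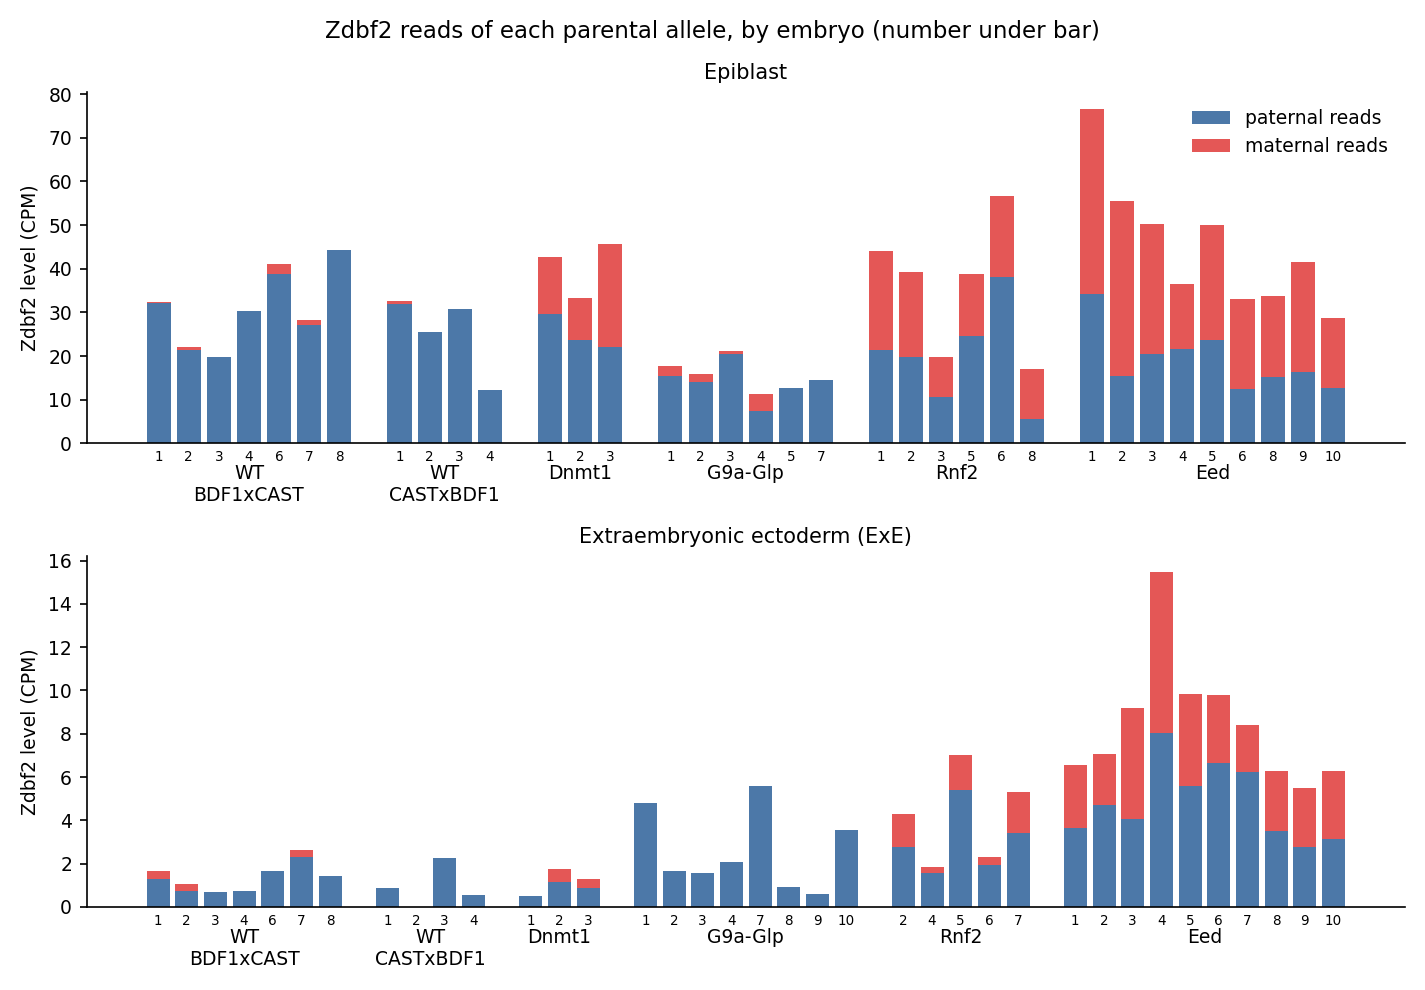
Zdbf2 level in each of the 72 libraries, in counts per 1000000 reads over polymorphisms (CPM), split into paternal (blue) and maternal (red) reads, with the embryo number under each bar. The upper panel shows epiblast and the lower panel ExE on its own scale; maternal reads form a visible part of all 9 Eed and all 6 Rnf2 epiblast bars and of all 3 Dnmt1 epiblast bars.

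Eed epiblast had the highest mean maternal share of the 9 groups in which at least 3 libraries reached 10 Zdbf2 reads. Each of its 9 embryos had 71 to 152 Zdbf2 reads, and 29 to 84 of them were maternal. The share was lowest in embryo 4 (40.8%, 29 of 71 reads), had a median of 55.6% and was highest in embryo 2 (72.2%, 57 of 79 reads). The mean was 57.1% ± 8.39 (SD, n = 9), and the maternal reads outnumbered the paternal reads in 8 of 9 embryos. The Wilson interval lay above 50% in 4 embryos and held 50% in the other 5. Every knockout came from BDF1xCAST, so its maternal allele is always the BDF1 allele. For a knockout share above or below 50%, parent and strain therefore cannot be told apart, here or in the groups below. All 9 embryos lay above every BDF1xCAST embryo, a separation found for 0.232% of the 9040 genes compared. That contrast helped to choose the gene, so the percentage is background only.

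In Eed epiblast the maternal level was higher and the paternal level on average lower than in wild type. Maternal Zdbf2 was 26.0 ± 9.94 CPM (lowest 14.9, median 25.2, highest 42.3), against 0.65 ± 0.86 CPM in BDF1xCAST epiblast, and all 9 embryos were above every wild-type embryo (4.11% of 10639 genes showed this for the maternal level). Paternal Zdbf2 was 19.1 ± 6.86 CPM (lowest 12.6, median 16.2, highest 34.3), which is 62.7% of the wild-type mean of 30.5 ± 8.83 CPM. In 5 of the 9 embryos the paternal level was below every BDF1xCAST value. In the other 4 it was within the BDF1xCAST range, so Zdbf2 was not among the 0.799% of genes with all 9 below. The lowest paternal level in CASTxBDF1 epiblast was 12.3 CPM, and no Eed embryo was below it. Total Zdbf2 was 45.1 ± 14.9 CPM, from 28.7 CPM in embryo 10 to 76.6 in embryo 1, and 4 of 9 embryos were above every wild-type embryo. The percentage of genes with every Eed embryo above wild type in total level was 5.96%, and Zdbf2 was not among them.

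Rnf2 epiblast showed the same direction with a wider spread between embryos. Its 6 embryos had 120 to 779 Zdbf2 reads, and the 779 reads of embryo 1 were the most in any library. The maternal share was 47.2% ± 12.1 (SD, n = 6), with a lowest value of 32.5% in embryo 6 (102 of 314 reads), a median of 47.9% and a highest of 66.7% in embryo 8 (80 of 120 reads). The Wilson interval was 27.5 to 37.8% in embryo 6, 31.5 to 42.2% in embryo 5, 48.1 to 55.1% in embryo 1 and 57.8 to 74.5% in embryo 8. Thus 2 embryos were below 50%, 1 was above it and 3 had intervals that held it, and the intervals of embryos 5 and 6 did not overlap those of embryos 1 and 8. All 6 were above every BDF1xCAST embryo, as were 0.675% of the 9190 genes compared.

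Maternal Zdbf2 reached 15.9 ± 5.16 CPM in Rnf2 epiblast and was above every wild-type embryo in 6 of 6 (6.05% of 12880 genes). The paternal level was 20.04 ± 11.4 CPM, 65.7% of the wild-type mean, and ran from 5.68 CPM in embryo 8 to 38.2 CPM in embryo 6. Of the 6 embryos, 2 were below the wild-type range, so Zdbf2 was not among the 2.11% of genes with all 6 below it. Embryo 8, with the highest maternal share, thus had the lowest paternal level and also the lowest total of its group (17.0 CPM), while embryo 6 had the lowest share and the highest total (56.6 CPM). The total was 35.9 ± 15.0 CPM, with 1 embryo above and 1 below the BDF1xCAST range. No Rnf2 embryo was below the lowest CASTxBDF1 total of 12.3 CPM. By paternal level, embryos 3 (10.6 CPM) and 8 (5.68 CPM) were below the lowest CASTxBDF1 value, which was also 12.3 CPM.

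Dnmt1 epiblast embryos 1, 2 and 3 had 28 maternal reads of 91, 11 of 38 and 35 of 68. Their maternal shares were 30.8%, 28.9% and 51.5% (mean 37.1% ± 12.5, SD, n = 3). The lowest of the 3 was above the highest wild-type value, a separation found for 2.09% of 7161 genes, where only 3 embryos had to exceed the wild type. The maternal level was 13.1, 9.64 and 23.5 CPM, above every wild-type embryo in 3 of 3 (10.3% of 9335 genes). The paternal level was 25.1 ± 3.91 CPM, 82.3% of the wild-type mean and within its range in all 3, and the total was 40.5 ± 6.44 CPM.

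In G9a-Glp epiblast the main difference was in the total. It was 17.7, 15.9, 21.2, 11.2, 12.6 and 14.5 CPM in embryos 1, 2, 3, 4, 5 and 7, with a mean of 15.5 ± 3.61 CPM (SD, n = 6), 49.8% of the BDF1xCAST mean. In 5 of 6 embryos the total was below every BDF1xCAST embryo, and embryo 3 was within the range. Zdbf2 was therefore not among the 3.85% of genes with all 6 embryos below BDF1xCAST. In CASTxBDF1 epiblast the lowest total was 12.3 CPM, and only G9a-Glp embryo 4 was below it. The maternal share was 12.8%, 11.5%, 3.85%, 34.5%, 0% and 0% in the same order, with a mean of 10.4% ± 13.01. The values of embryos 3, 5 and 7 lay within the wild-type range, so Zdbf2 was not among the 0.69% of genes with all 6 shares above it. Embryo 4 had 10 maternal reads of 29 (Wilson interval 19.9 to 52.7%), and without it the mean share was 5.63%. Leaving out embryos 2 and 7, whose Ehmt1 was not below the wild-type mean, gave a share of 12.8% and a total of 15.7 CPM, an alternative chosen after seeing the data.

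**Figure D2:**
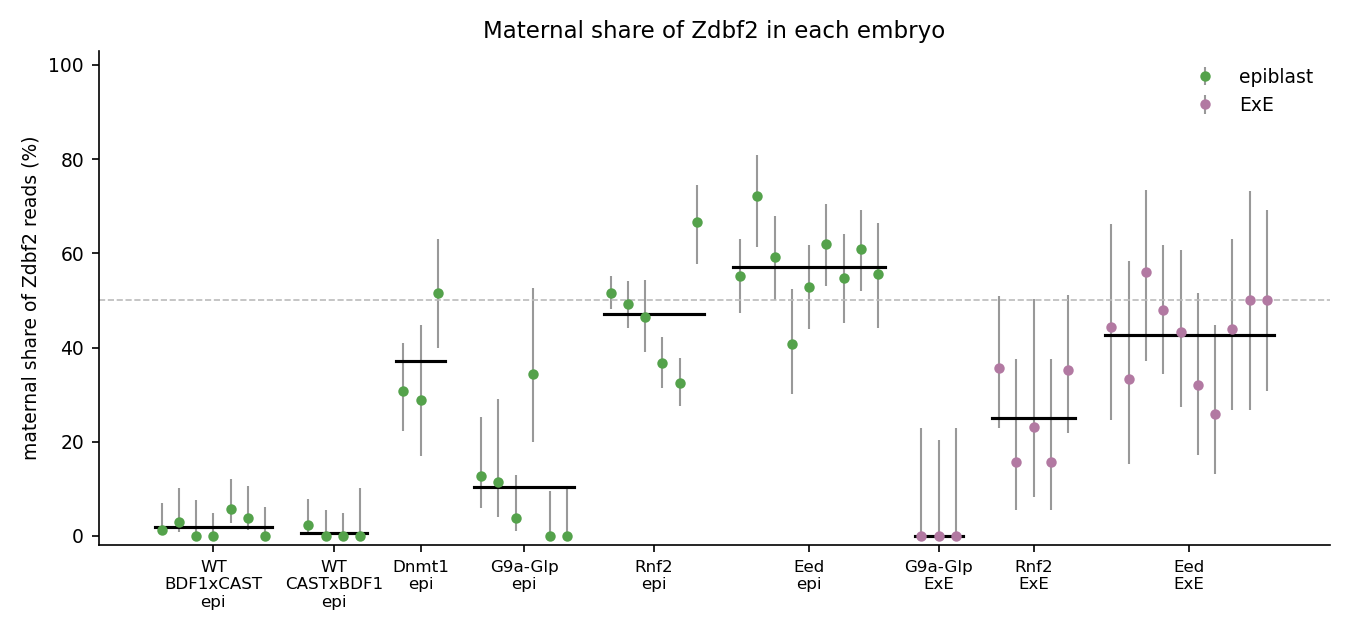
Maternal share of Zdbf2 reads (%) in each library with at least 10 Zdbf2 reads, for the 9 groups with at least 3 such libraries; grey bars are 95% Wilson intervals, black lines are group means and the dashed line is 50%. Embryos run in order of their numbers within a group, and the epiblast embryos of Eed, Rnf2 and Dnmt1 all lie above those of both wild-type crosses.

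ExE held much less Zdbf2 than epiblast in every genotype, on the CPM scale of the same gene. The BDF1xCAST ExE libraries had 2 to 8 Zdbf2 reads and 1.41 ± 0.67 CPM (n = 7), so epiblast was 22.1-fold higher. Summed over embryos, 3 of 29 reads were maternal (10.3%, Wilson interval 3.58 to 26.4%). CASTxBDF1 ExE had 13 reads in all, 0 of them maternal, which allows a share of up to 23.1%, and 0.93 ± 0.97 CPM (n = 4). Embryo 3 held 8 of these reads, and without it the mean was 0.481 CPM. Dnmt1 ExE had 7 reads, 2 of them maternal, and 1.18 ± 0.63 CPM (n = 3). No library of these 3 groups reached 10 reads, so no share per embryo is given for them.

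Eed ExE had 249 Zdbf2 reads over 10 embryos, 14 to 48 in each, and 107 were maternal. The share was 42.7% ± 9.42 (SD, n = 10), lowest in embryo 7 (25.9%, 7 of 27 reads), with a median of 44.2% and highest in embryo 3 (56%, 14 of 25 reads). The Wilson interval held 50% in 9 of 10 embryos. Total Zdbf2 was 8.44 ± 2.93 CPM, from 5.50 CPM in embryo 9 to 15.5 CPM in embryo 4, and all 10 embryos were above every BDF1xCAST ExE library (6.61% of 10938 genes). Maternal Zdbf2 was 3.61 ± 1.61 CPM against 0.15 ± 0.18, and paternal Zdbf2 was 4.83 ± 1.74 CPM against 1.27 ± 0.60. All 10 embryos were above wild type for the maternal level (4.33% of genes) and for the paternal level (4.51%). In ExE, then, both parental levels were higher than in wild type, whereas in epiblast the paternal level of Eed embryos averaged below it.

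Rnf2 ExE embryos 2, 4, 5, 6 and 7 had 15 maternal reads of 42, 3 of 19, 3 of 13, 3 of 19 and 13 of 37. The share was 25.1% ± 9.88 (SD, n = 5) and the total 4.15 ± 2.14 CPM, with 3 of 5 embryos above every wild-type ExE library. Zdbf2 was thus not among the 8.95% of genes with all 5 above. Without embryos 2, 5 and 6, the 3 with the most Rnf2 mRNA, the share was 25.5% and the total 3.57 CPM, again an alternative chosen after seeing the data. G9a-Glp ExE had 57 reads over 8 embryos and 0 were maternal, which allows a share of up to 5.26%. Its total was 2.59 ± 1.85 CPM (lowest 0.61, median 1.85, highest 5.59), and embryos 1, 7 and 10 were above every wild-type library. Here too Zdbf2 was not among the genes (2.6%) with all 8 above. Eed and Rnf2 ExE thus held maternal reads where G9a-Glp ExE, with a total between those of wild type and Rnf2, held none.

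Because Zdbf2 is much higher in epiblast, epiblast cells in an ExE sample would add reads. Fgf5, a growth factor gene that marks epiblast, averaged 0.551 CPM in BDF1xCAST ExE and 2.22 CPM in Eed ExE, the latter 0.466% of the level in Eed epiblast (476 CPM). The highest Eed ExE library, embryo 10, reached 8.53 CPM of Fgf5, or 1.79% of the epiblast mean, with 6.26 CPM of Zdbf2. Zdbf2 in Eed ExE was 18.7% of its level in Eed epiblast. In Rnf2 ExE, Fgf5 was 0.338% and Zdbf2 11.6% of their epiblast levels. In G9a-Glp ExE the corresponding values were 1.06% and 16.7%, and the highest Fgf5 value (17.1 CPM, embryo 8) was in a library with 0.93 CPM of Zdbf2. Fgf5 is 1 of the 9 listed epiblast markers, and the sum of all 9 was much less depleted in ExE. Its median was 675 CPM in Eed ExE against 4474 CPM in Eed epiblast, and 744 against 3196 CPM in Rnf2. In G9a-Glp it was 993 against 5341 CPM, and in BDF1xCAST 992 against 3981 CPM. The part of epiblast cells in the ExE values was not tested further.

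Ordered by total level, the group means fell from Eed epiblast (45.1 CPM) through Dnmt1 (40.5), Rnf2 (35.9), BDF1xCAST (31.2), CASTxBDF1 (25.3) and G9a-Glp epiblast (15.5) to Eed ExE (8.44), Rnf2 ExE (4.15), G9a-Glp ExE (2.59), BDF1xCAST ExE (1.41), Dnmt1 ExE (1.18) and CASTxBDF1 ExE (0.93). Neighbours in that order overlapped in every case. Their means differed by more than the larger of the 2 SDs only between CASTxBDF1 and G9a-Glp epiblast, between G9a-Glp epiblast and Eed ExE, and between Eed and Rnf2 ExE. By maternal share the order was Eed epiblast, Rnf2 epiblast, Eed ExE, Dnmt1 epiblast, Rnf2 ExE, G9a-Glp epiblast and the wild-type epiblasts, with G9a-Glp ExE last. Here too every pair of neighbours overlapped, and the means differed by more than the larger SD only between Rnf2 ExE and G9a-Glp epiblast.

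Sex, a label that played no part in choosing the gene, was compared within 4 epiblast groups for the maternal share and the total, which gave 8 exact two-sided permutation tests. None passed after Benjamini-Hochberg adjustment. In Eed epiblast the maternal share was 61.2% ± 6.85 in 5 males and 52.0% ± 7.88 in 4 females (exact permutation p = 0.0794, adjusted p = 0.343). In BDF1xCAST epiblast the total was 25.7 ± 5.81 CPM in 4 males and 38.5 ± 7.32 CPM in 3 females (exact permutation p = 0.0857, adjusted p = 0.343). The other 6 tests had adjusted p-values of 1. With 3 embryos of each sex, as in G9a-Glp epiblast, the smallest p the exact test allows is 0.1, and with 4 and 2 in Rnf2 epiblast it is 0.0667.

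The maternal share was also set against the remaining mRNA of the targeted gene within a group, in 2 relations. Over the 9 Eed epiblast embryos, whose Eed mRNA ran from 2.81 to 19.8 CPM, Pearson's r was -0.22 (exact permutation p = 0.58) and Spearman's rho was -0.20 (exact permutation p = 0.613), with adjusted p-values of 0.963 and 0.613. Without the 2 embryos farthest from the median Eed level r was -0.31. Across the 6 Rnf2 epiblast embryos r was 0.04 (exact permutation p = 0.963) and rho -0.31 (exact permutation p = 0.564), and r was 0.40 without the 2 farthest embryos. Neither relation passed the test.

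Genes within 1 Mb of Zdbf2 showed whether the allelic pattern reached further along chromosome 1. The window holds 29 other genes, of which 7 had at least 10 reads in at least 3 wild-type BDF1xCAST epiblast libraries. Before Zdbf2 these were Ino80d, a subunit of the INO80 chromatin remodeller (86091 bases away), Ino80dos (42063), the mitochondrial complex I gene Ndufs1 (23536) and the translation elongation factor gene Eef1b2 (19872). After it came Adam23, a membrane protein of the ADAM family (131306), Fastkd2, a mitochondrial RNA-binding protein (416023), and the transcription factor Klf7 (714872). In wild type, 0 of 6 tested neighbours had a parental bias by edgeR's quasi-likelihood test over both crosses, and 0 had an unadjusted p under 0.05, where 0.272% of 8469 genes were called.

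The nearest expressed gene, Eef1b2, had a maternal share of 69.6% ± 3.01 (SD, n = 7) in BDF1xCAST and 31.7% ± 0.27 (n = 4) in CASTxBDF1 epiblast, so its reads came mainly from the BDF1 allele whichever parent carried it. Ndufs1 was near equal in both crosses (50.7% ± 3.73 and 48.5% ± 1.69). In the knockouts, the allelic test called 0 of 6 neighbours in Dnmt1 epiblast (0.894% of 7161 genes were called), 0 of 7 in G9a-Glp (1.82% of 8692), 0 of 7 in Rnf2 (0.686% of 9190) and 0 of 7 in Eed (1.05% of 9040). By edgeR, 1 neighbour had an unadjusted p under 0.05 in G9a-Glp, 1 in Eed and 0 in Dnmt1 and Rnf2, and DESeq2 and limma also called 0 in each. Eef1b2 stayed at 66.6% ± 2.54 in Eed and 67.1% ± 1.31 in Rnf2 epiblast, while Zdbf2, 19872 bases further on, had 1.99% in wild type and 57.1% and 47.2% in these groups.

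**Figure D3:**
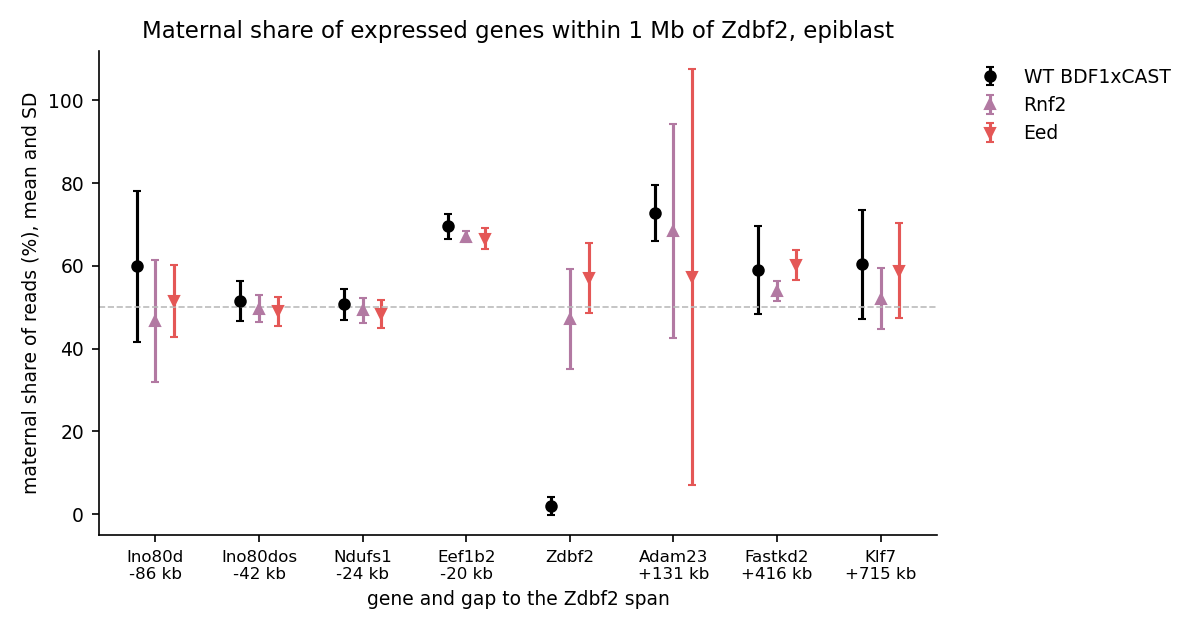
Mean maternal share (%) with its SD between embryos for Zdbf2 and the 7 expressed genes within 1 Mb, in wild-type BDF1xCAST, Rnf2 and Eed epiblast libraries with at least 10 reads of the gene, in order along the chromosome with the gap to Zdbf2 in kb. Zdbf2 has 1.99%, 47.2% and 57.1%, and the wide bars of Adam23 rest on 3 to 5 libraries.

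Total levels of some neighbours passed the threshold in 3 of the knockouts, where many other genes did too. In Dnmt1 epiblast, 2 of 7 rose, as did 711 of 10247 genes (14.1% of all genes tested were called in either direction). They were Ino80d, from 8.15 ± 2.25 to 22.1 ± 5.65 CPM (log2 change 1.23, edgeR adjusted p = 0.0142), and Klf7, from 10.6 ± 2.64 to 25.0 ± 7.64 CPM (log2 change 1.01, edgeR adjusted p = 0.0324). All 3 embryos were above every wild-type embryo for both genes. The Klf7 call was lost without Dnmt1 embryo 1 or 2 or without wild-type embryo 1, 3, 4 or 7, and the Ino80d call without Dnmt1 embryo 2. With no filter on low counts the Klf7 call was also lost. Without wild-type embryo 8, 4 neighbours passed. In Eed epiblast, 3 of 7 neighbours fell, as did 1621 of 9819 genes (35.7% of all genes were called in either direction). They were Eef1b2 (1033 ± 320 to 877 ± 111 CPM, log2 change -0.38, edgeR adjusted p = 0.0365), Ndufs1 (log2 change -0.36, edgeR adjusted p = 0.0182) and Ino80dos (log2 change -0.38, edgeR adjusted p = 0.0139), each below the wild-type mean in 8 or 9 of 9 embryos. Ino80dos and Ndufs1 overlap and share reads, so they are not separate results. The Eef1b2 call was lost without wild-type embryo 4, 6 or 8 or without Eed embryo 2, 4, 6 or 10, and all 3 calls were lost with no filter on low counts. In Rnf2 epiblast 1 of 7 fell, as did 1317 of 10133 genes (31% of genes were called in either direction). It was Ino80dos, with a log2 change of -0.36 and an edgeR adjusted p of 0.045. That call was lost in 13 of 16 alternative settings, among them leaving out any wild-type embryo but 8 or any Rnf2 embryo but 3. In G9a-Glp epiblast edgeR called 0 of 7 (34.6% of genes called), with 1 at an unadjusted p under 0.05 2 called by DESeq2 and 2 without wild-type embryo 8. Gpr1, which overlaps Zdbf2, had only 17 reads over the 7 BDF1xCAST epiblast libraries, 13 of them maternal. In CASTxBDF1 epiblast it had 12 reads, 2 of them maternal, so the few wild-type reads came mostly from the BDF1 allele in both crosses. Eed epiblast had 49 Gpr1 reads, 25 of them maternal.

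Zdbf2 was then set beside other imprinted genes, from a list of 36 paternally and 40 maternally expressed genes that leaves out Zdbf2. In wild-type epiblast 18 of the 37 listed genes tested had a parental bias in either direction, against 0.272% of all genes tested. Among them, Nespas is listed as paternally expressed but had maternal shares of 95% in BDF1xCAST and 94.4% in CASTxBDF1 epiblast. In Dnmt1 epiblast the allelic test called 15 of 28 listed genes, against 0.894% of all genes. Of the 14 paternally expressed genes tested, 10 moved toward the maternal allele and 0 away from it, with a median log2 change of the maternal to paternal ratio of 4.56 (-0.01 over all genes tested), where 0.363% of all genes moved toward the maternal allele. The 10 were Peg3, Sgce, Mest, Snhg14, Magel2, Impact, Kcnq1ot1, Mcts2, Fkbp6 and Slc38a4. Among 14 maternally expressed genes, 5 moved toward the paternal allele: H19, Meg3, Rian, Mirg and Phlda2. Of all genes, 0.531% moved in that direction.

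The Polycomb knockouts called few of the same list. In Rnf2 epiblast 3 of 39 listed genes passed (0.686% of all genes did), and in Eed epiblast 3 of 39 (1.05%). Toward the maternal allele went 1 listed gene in Rnf2 (0.326% of all genes did so) and 2 in Eed (0.332%). Toward the paternal allele went 2 in Rnf2 (0.359%) and 1 in Eed (0.719%). Of the 16 paternally expressed genes tested, 2 passed in each, with median log2 changes of 0.58 and 0.16 over the list. Slc38a4, an amino acid transporter, had a maternal share of 1.74% ± 2.18 in BDF1xCAST epiblast (n = 7). In Eed epiblast it was 18.6% ± 10.5 (n = 9, log2 change 3.76, edgeR adjusted p = 3.0e-05), with 9 of 9 embryos above every BDF1xCAST embryo. In CASTxBDF1 epiblast the share reached 12.7% (mean 4.13%, n = 4), and the lowest Eed value was 7.92%. Peg3, a zinc finger gene, moved from 0.90% ± 0.85 to 5.01% ± 5.20 in Eed (log2 change 2.94, edgeR adjusted p = 0.0195, 7 of 9 embryos above the wild-type mean) and to 5.74% ± 4.66 in Rnf2 epiblast (n = 6, log2 change 2.98, edgeR adjusted p = 0.0405, 6 of 6).

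Cd81, a tetraspanin gene listed as maternally expressed, moved toward the paternal allele in both: from 67.6% ± 3.58 to 59.9% ± 2.12 in Eed (edgeR adjusted p = 0.00541, 9 of 9 embryos below the wild-type mean) and to 57.7% ± 2.85 in Rnf2 (edgeR adjusted p = 0.00781, 6 of 6). Sfmbt2, a Polycomb group gene listed as paternally expressed, had a widely spread share of 58.2% ± 24.8 in BDF1xCAST epiblast (n = 5). In CASTxBDF1 epiblast it was 14.8% ± 16.9 (n = 4, 5% to 40%). In Rnf2 epiblast it was 16.2% ± 9.05 (edgeR adjusted p = 0.044, 6 of 6 below every BDF1xCAST embryo). The Sfmbt2 call was lost in 12 of 17 alternative settings, with any of wild-type embryos 1, 2, 3, 4, 7 and 8 or Rnf2 embryos 1, 3, 5 and 8 left out. The Peg3 call in Rnf2 was lost in 11 of 18, with any of wild-type embryos 1, 3, 4, 6, 7 and 8 or Rnf2 embryos 2, 3 and 6 left out, and in Eed without wild-type embryo 6 or 7 or Eed embryo 8. The Slc38a4 call in Eed held in 21 of 21. The Cd81 call was lost with limma in Rnf2 (limma adjusted p = 0.124) and in 2 of 21 alternatives in Eed, limma among them (limma adjusted p = 0.108). G9a-Glp epiblast called 2 of 39 (1.82% of all genes), both toward the maternal allele (0.644%): Slc38a4 (30.6% ± 8.11, n = 6, edgeR adjusted p = 3.8e-08, 6 of 6 above every wild-type embryo) and Peg3 (7.65% ± 11.5, edgeR adjusted p = 0.0171, 6 of 6 above the wild-type mean).

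Several paternally expressed genes kept low maternal shares in the Polycomb knockouts where Zdbf2 did not. Snhg14, a long noncoding RNA of the Prader-Willi region, had 0.90% in BDF1xCAST, 50.5% in Dnmt1, 0% in Rnf2 and 0.303% in Eed epiblast. Mest, a hydrolase-like gene, had 3.12%, 46.3%, 2.08% and 1.55% in the same groups. Impact, a regulator of translation under stress, had 3.48%, 47.6%, 8.44% and 6.36%, and Kcnq1ot1, a long noncoding RNA, had 7.52%, 56.8%, 11.1% and 0.532%. Mcts2, a retrogene inside H13, was intermediate with 1.10%, 53.8%, 15.2% ± 12.5 and 10.8% ± 12.3, and passed the allelic test in Dnmt1 epiblast only among these 3 knockouts (edgeR adjusted p = 0.0677 in Rnf2 and 0.0598 in Eed). Jade1 and Gab1 had wild-type maternal shares of 47.7% and 47.6% in BDF1xCAST epiblast and 46.5% and 45.9% in CASTxBDF1 epiblast. Inpp5f had 24.4% and 37.7%, the second above the limit of 30% used for a parental bias. Whether the change of Zdbf2 differs from that of each listed gene was not tested.

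**Figure D4:**
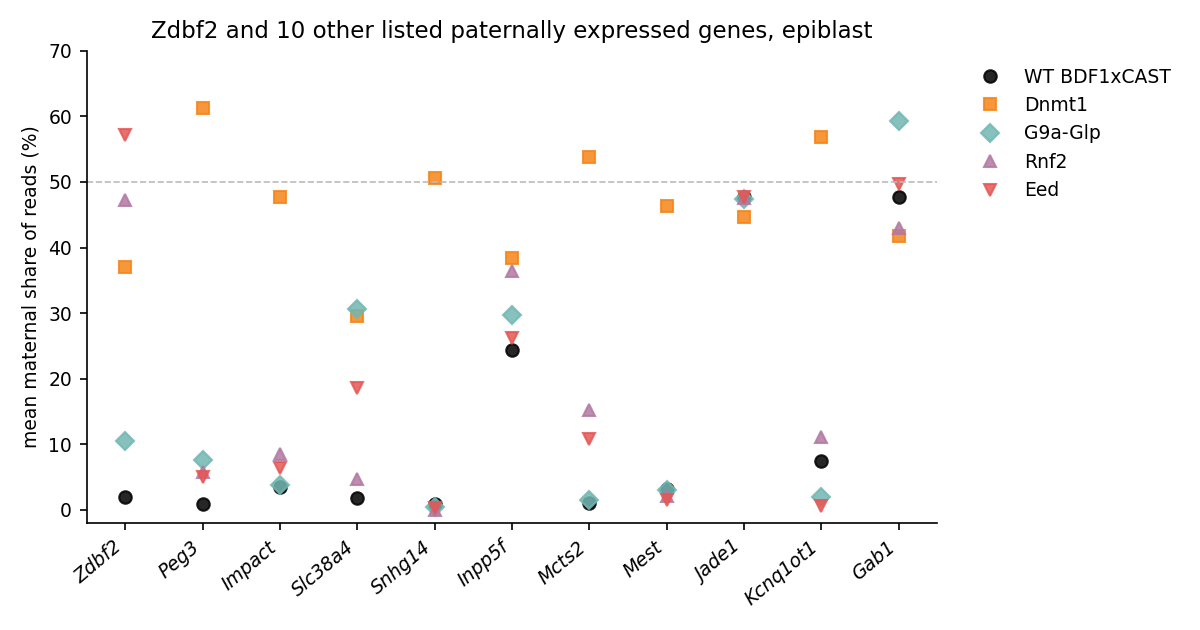
Mean maternal share (%) in epiblast for Zdbf2 and the 10 listed paternally expressed genes with the most wild-type reads, by genotype; the dashed line is 50%. Dnmt1 points lie high for most genes that are low in wild type, while for Rnf2 and Eed the Zdbf2 points (47.2% and 57.1%) lie far above those of Peg3, Snhg14 and Mest.

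The genes whose pattern over groups was most like that of Zdbf2 were found by the correlation of group means, given as a description with no test since the groups share libraries. For the maternal share over 9 groups and 6704 candidate genes, the closest were Hspd1 (r = 0.89), Osbpl11 (0.88), Smurf2 (0.86), Cat (0.86) and Zfp655 (0.86). Their group means stayed near 50% and spanned only 6.42 to 14.0 percentage points, against 57.1 for Zdbf2. By the root mean square difference of the shares, a measure chosen after seeing these values, the closest gene was Fkbp6, a listed paternally expressed gene, at 18.2 percentage points. Fkbp6 had maternal shares of 10.6% ± 10.03 in BDF1xCAST, 58.3% ± 2.10 in Dnmt1, 14.5% ± 15.4 in G9a-Glp, 35.3% ± 12.4 in Rnf2 and 29.8% ± 16.7 in Eed epiblast, and 9.40% in Eed ExE, where Zdbf2 had 42.7%. Its allelic change was not called in Rnf2 (edgeR adjusted p = 0.0546) or Eed epiblast (edgeR adjusted p = 0.0987). For the level, over 12 groups and 11130 candidates, Frmd4b, Lypd6, Lrp3 (each r = 0.99), Grrp1 and Plpp4 (each 0.98) followed Zdbf2 most closely on the log2(CPM + 1) scale. Like Zdbf2, all 5 had a higher mean in epiblast than in ExE in every genotype.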

How the data were processed

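Per the labels' protocols, the SMART-Seq v4 kit made the cDNA, Nextera XT the libraries, and sequencing was paired-end. STAR 2.5.0, HTSeq and the mm10 build are named in the submitters' processing notes. The polymorphism set was not given in the sources used here. The authors deposited 3 values per gene and library: the raw count of reads over polymorphisms with both alleles summed, an allelic ratio (a score of the CAST share minus 0.5, rounded) and an allelic score (a signed -log10 binomial p-value, 0 under 10 reads). All columns could be mapped to samples, so 0 were left over.

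The CAST count of each gene was rebuilt from the rounded ratio and the score as a whole number, which matched 99.986% of 712130 scored values within 0.002. The cross then told which count is maternal. CPM is a count per 1000000 reads of its library. A maternal share needed at least 10 reads, and limits for a count of 0 use 3 counts. Allelic changes were tested with edgeR 4.0.16 (quasi-likelihood, R 4.3.3) on allele counts with a term for each library, over genes on autosomes that reached 10 reads in 3 or more libraries of both groups. For totals, TMM scaling and filterByExpr were used. All tests were two-sided, with Benjamini-Hochberg adjustment over all genes and a threshold of 0.05, each knockout against BDF1xCAST epiblast. Parental bias also needed a mean maternal share of at least 70% or at most 30% in both crosses. Scripts were tested on simulated data. Alternatives were DESeq2 1.42.0, limma 3.58.1 with 0.5 added per allele, other read minimums, leaving out each library and a replicate block.

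Replicates are single embryos, per the labels. Zdbf2, the gene lists and the tests were chosen with earlier results of these data known. Named genes are Zdbf2, targeted genes, expressed genes within 1 Mb, listed imprinted genes called in Rnf2 or Eed epiblast, the 10 listed paternally expressed genes with the most wild-type reads, and the 5 most alike by each measure; others were chosen after their values were seen. The markers and imprinted genes were lists written from general knowledge. The bisulfite library was not analysed here.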

Additional observations from a re-analysis of the deposited data

Results flagged for a closer look

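Within groups of 4 to 10 embryos, 35 checks for a single value far from the others by Dixon's criterion gave 4 cases. Chance meets the criterion in about 1 in 20 groups if values are normally distributed. The checks covered linked measures of the same embryos, so they are not independent. G9a-Glp epiblast embryo 4 had a Zdbf2 maternal share of 34.5%, and the next embryo had 12.8%. Its value rests on 29 reads. In Eed ExE, embryo 4 had 15.5 CPM of Zdbf2 in total, and the next had 9.83 CPM. Its share of 47.9% (23 of 48 reads) was not set apart in the same way. CASTxBDF1 epiblast embryo 1 had a maternal share of 2.27% and a maternal level of 0.742 CPM, where the other 3 embryos had 0, and both values come from the same 2 reads. With the others all at 0, any maternal read in a single embryo meets the criterion.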

How the results depend on the processing

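Of 179 alternative values for 21 Zdbf2 group means, 178 stayed within 1 SD of the mean given; the exception was the Rnf2 ExE share, 35.4% in the libraries with at least 20 reads. The number of listed imprinted genes called changed with the read minimum and the tool. In Dnmt1 epiblast 15 became 9 with a read minimum of 50 and 9 with limma (11 to 15 when 1 library was left out). In G9a-Glp 2 became 1 with limma (2 to 3). In Rnf2, 3 became 5 with no read minimum, 7 with DESeq2, 0 with limma and 1 with the replicate block (1 to 5; 5 without Rnf2 embryo 2, and 1 without wild-type embryo 3, 4, 7 or 8 or Rnf2 embryo 3). In Eed, 3 became 6 with no read minimum and 1 with limma (2 to 5; 5 without wild-type embryo 1). The cause was not tested.

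Neighbours with a changed total numbered 2 in Dnmt1, 0 in G9a-Glp, 1 in Rnf2 and 3 in Eed epiblast. With no filter on low counts the numbers were 1 in Dnmt1, 0 in Rnf2 and 1 in Eed. DESeq2 gave 2 in G9a-Glp and 2 in Rnf2. With the replicate block they were 1 in Dnmt1, 1 in G9a-Glp, 0 in Rnf2 and 0 in Eed, and none of the neighbours named as called (Ino80d and Klf7 in Dnmt1, Ino80dos in Rnf2, and Ino80dos, Ndufs1 and Eef1b2 in Eed) passed. Leaving out 1 library gave 0 to 4 in Dnmt1, 0 to 2 in G9a-Glp, 0 to 3 in Rnf2 and 2 to 4 in Eed, and without wild-type embryo 8 the Dnmt1 number was 4 and the Rnf2 number 3. The number of neighbours with an allelic change or a parental bias was 0 under every alternative run.

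Same-numbered wild-type and knockout embryos did not deviate together: correlations were -0.43 to 0.20 in Dnmt1, -0.15 to 0.23 in G9a-Glp, -0.27 to 0.16 in Rnf2 and -0.10 to 0.18 in Eed, and 1 embryo in each correlated best with its own number. The numbers therefore give no pairing.

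When 1 embryo was left out, the male minus female difference changed sign in some cases: it ran from -0.852 to 2.03 percentage points for the BDF1xCAST share, -6.18 to 11.1 for the G9a-Glp share, -4.13 to 0.862 CPM for the G9a-Glp total, -4.23 to 3.88 CPM for the Rnf2 total and -2.92 to 9.06 CPM for the Eed total. Pearson's r of the share with Eed mRNA ran from -0.44 to 0.12. For Rnf2 this was not run, since fewer than 6 embryos would remain. Depth limits ExE most, where wild-type libraries had at most 8 Zdbf2 reads.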
